A study of Drosophila melanogaster with 4 samples.

Results

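The dpr and DIP genes of Drosophila melanogaster were followed through the TAD lists and loop lists of BG3 and Kc167 cells. Members were taken by symbol alone, as every protein-coding gene of the dm6 annotation named dpr with a number or DIP- with a Greek letter. This gave 32 genes, 21 of them dpr and 11 DIP, of 13945 protein-coding genes on the 6 main chromosome arms. BG3 is a neuronal line of male origin that was made from the larval nervous system, whereas Kc167 came from embryos and is female. Both are established lines that had no treatment, grown in Schneider's medium with 10% serum for BG3 and 5% for Kc167, so that each is 1 genotype and not a sample of neurons or of embryos. In situ Hi-C ligates DNA ends that lie near each other in the nucleus after digestion with DpnII, which cuts at GATC. Each line had 2 replicates, which the authors summed into 1 map, so no spread between replicates can be given and no difference between the lines was tested. The lists hold no totals of read pairs, but the study's methods give more filtered reads for each Kc167 replicate than for either BG3 replicate. RNA was not examined here, so the neuronal identity of BG3 was not checked against marker genes.

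Dpr and DIP proteins are cell surface proteins with immunoglobulin domains. The first of them was found through a mutant with a defective proboscis extension response to salt, and the DIPs are the Dpr-interacting proteins. Each Dpr binds a set of DIPs across the gap between cells, neurons of different types carry different combinations, and the pairs take part in the choice of synaptic partners and in the survival of neurons in the fly brain and at the neuromuscular junction. A TAD is a stretch of chromosome whose fragments contact each other more than they contact the neighbouring stretch, and a border is where 2 TADs meet. A loop is a pair of sites that contact each other more than their surroundings do.

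Sequences are shown for 5 windows that carry borders at members. They are the conserved borders upstream of dpr2 and DIP-epsilon and 3 specific borders inside members whose whole DpnII fragment is short enough to print. The border 282 bp into dpr18 is not shown because it lies in an untranslated part of an exon. All are dm6 sequence (NCBI Release 6), written 5′ to 3′ on the strand of the gene. In the first pair the capitals mark 5 bases centred on a border that both maps placed at the same base. These are the 300 bases before dpr2 (chr2L:10964154-10964453, minus strand) and 300 bases around the border upstream of DIP-epsilon (chr2L:6411937-6412236, minus strand). In the other 3 the capitals mark the GATC sites at the ends of the fragment whose middle was called as a border. They are the BG3-specific border in an intron of dpr5 (chr3R:11501187-11501450, plus strand), the Kc167-specific border in a coding exon of dpr2 (chr2L:10917766-10917984, minus strand) and a BG3-specific border in an intron of DIP-alpha (chrX:3533459-3533625, minus strand).
dpr2 upstream: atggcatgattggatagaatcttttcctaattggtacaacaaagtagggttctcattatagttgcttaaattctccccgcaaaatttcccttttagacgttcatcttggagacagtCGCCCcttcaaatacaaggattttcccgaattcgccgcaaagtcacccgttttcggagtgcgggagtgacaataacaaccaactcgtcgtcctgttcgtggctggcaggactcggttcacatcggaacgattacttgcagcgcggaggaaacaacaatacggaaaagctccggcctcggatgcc
DIP-epsilon border: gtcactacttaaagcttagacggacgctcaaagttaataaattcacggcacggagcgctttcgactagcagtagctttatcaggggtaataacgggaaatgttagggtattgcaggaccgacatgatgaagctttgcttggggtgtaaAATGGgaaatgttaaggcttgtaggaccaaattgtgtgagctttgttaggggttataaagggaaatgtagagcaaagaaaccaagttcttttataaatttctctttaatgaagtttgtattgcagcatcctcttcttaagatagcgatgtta
dpr5 fragment: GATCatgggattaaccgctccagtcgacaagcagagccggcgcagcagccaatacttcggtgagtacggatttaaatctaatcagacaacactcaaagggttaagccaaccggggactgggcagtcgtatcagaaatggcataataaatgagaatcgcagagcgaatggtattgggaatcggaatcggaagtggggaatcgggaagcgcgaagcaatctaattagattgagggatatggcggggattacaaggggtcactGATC
dpr2 exon fragment: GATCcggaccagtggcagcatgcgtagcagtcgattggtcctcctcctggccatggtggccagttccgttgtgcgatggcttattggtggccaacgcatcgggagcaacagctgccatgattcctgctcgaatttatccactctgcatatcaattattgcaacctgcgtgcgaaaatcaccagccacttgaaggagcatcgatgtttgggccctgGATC
DIP-alpha fragment: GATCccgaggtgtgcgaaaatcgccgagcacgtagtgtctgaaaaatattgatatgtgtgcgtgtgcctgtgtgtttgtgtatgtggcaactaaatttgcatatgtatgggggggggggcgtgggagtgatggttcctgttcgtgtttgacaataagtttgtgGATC

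The GC content of these windows was 47.7% before dpr2, 39.7% at DIP-epsilon, 49.2% in the dpr5 fragment, 54.3% in the dpr2 exon fragment and 47.9% in the DIP-alpha fragment. The dpr2 exon fragment was coding over all of its 219 bases, and the dpr5 fragment over 59 of 264. None of the 5 windows held GAGAG (the core of GAGA factor sites), TATCGATA (Dref) or GGTCACAC (M1BP) on either strand. TATAAA, searched on both strands, was found only at DIP-epsilon, with 3 matches. Of the 37 borders listed inside members or within 2 kb of their 5′ ends, counting each map apart, 35 lay within 3 bp of the midpoint of a DpnII fragment. The exceptions were a Kc167 border in DIP-lambda and a Kc167 border in dpr21. A border position is therefore no finer than the fragment that carries it, and the fragments at members measured up to 1657 bp between sites, in dpr18.

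Few members began at a TAD border. Of the 27 autosomal members, 3 had their 5′ end no more than 2 kb from a BG3 border, as did 17.3% of the 11749 autosomal protein-coding genes, and 2 were that close to a border of Kc167, against 19.8% of genes. Of the 15 members of at least 20 kb, 2 lay this close to a border in each map, where 28.1% of the genes of that length did in BG3 and 31.4% in Kc167. A border is called conserved where the other map has one within 20 bp, specific where it has none within 2 kb, and fuzzy in between. Conserved borders stood at the 5′ ends of 2 members (6.72% of genes), a BG3-specific border at 1 (5.57% of genes) and a Kc167-specific border at 0 (7.9% of genes). These counts are too small to set the members apart from other genes.

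The 2 members at conserved borders were dpr2 and DIP-epsilon, both on the minus strand of 2L. For dpr2, the border at 10964335 lay 182 bp upstream of the 5′ end in both maps, and it was strong in both, meaning that the TAD list made at the stringent setting also held it. The BG3 TAD of 66.2 kb that ended there held the whole 47.1 kb gene. The Kc167 TAD was 46.5 kb wide, began inside a coding exon near the 3′ end of dpr2 and held 98.2% of the gene. In Kc167 the TAD and the gene thus nearly coincided. The stringent list did not hold the border in that exon, and its Kc167 TAD at dpr2 measured 100.2 kb. At DIP-epsilon the strong border at 6412086 lay 760 bp upstream in both maps, and 229 bp from the 5′ end of CG13982. The BG3 TAD that ended there (55.4 kb) and the Kc167 TAD (45.1 kb) each held the whole gene of 33.6 kb, and they shared 81.4% of their joint span. TAD separation scores, which are lower where fewer contacts cross a border and are read within 1 map, were -0.18 in BG3 and -0.28 in Kc167 at the dpr2 border. At the DIP-epsilon border they were 0.10 and 0.34. The medians over all autosomal borders were -0.0003 in BG3 and -0.025 in Kc167, so the dpr2 border scored below the median of its map and the DIP-epsilon border above it, in both lines.

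The third member with a BG3 border at its 5′ end was dpr5, on 3R. The border at 11501318 fell 1334 bp into the gene, in an intron 73 bp from the nearest exon, and was weak (absent from the stringent list). No Kc167 border was listed within 8411 bp of it. It left 22.4% of the 5.97 kb gene in the TAD of its 5′ end, which measured 31.8 kb in BG3, the narrowest BG3 TAD among autosomal members. In Kc167 the gene lay whole in a TAD of 72.1 kb.

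More members held a border inside the gene than had one within 2 kb of the 5′ end. A whole gene is the wider window for most members, so these counts do not compare equal lengths. In each map 10 of the 27 autosomal members held at least 1 border between their ends, where 8.7% of all autosomal genes did in BG3 and 9.82% in Kc167. The members are long genes, with a median of 32.3 kb (from 3.74 to 379 kb) against 2.10 kb over all genes, so the counts were also set beside genes of similar length. Of the 15 autosomal members of at least 20 kb, 8 held a BG3 border and 9 a Kc167 border, where 38.8% and 41.6% of the 815 genes of that length did. Counted per 100 kb of gene, members of at least 20 kb held 0.929 borders in BG3 and 1.098 in Kc167, close to the 1.11 and 1.21 of all genes of that length. The shares of long members with a border thus stood above their background while the densities did not.

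**Figure D1:**
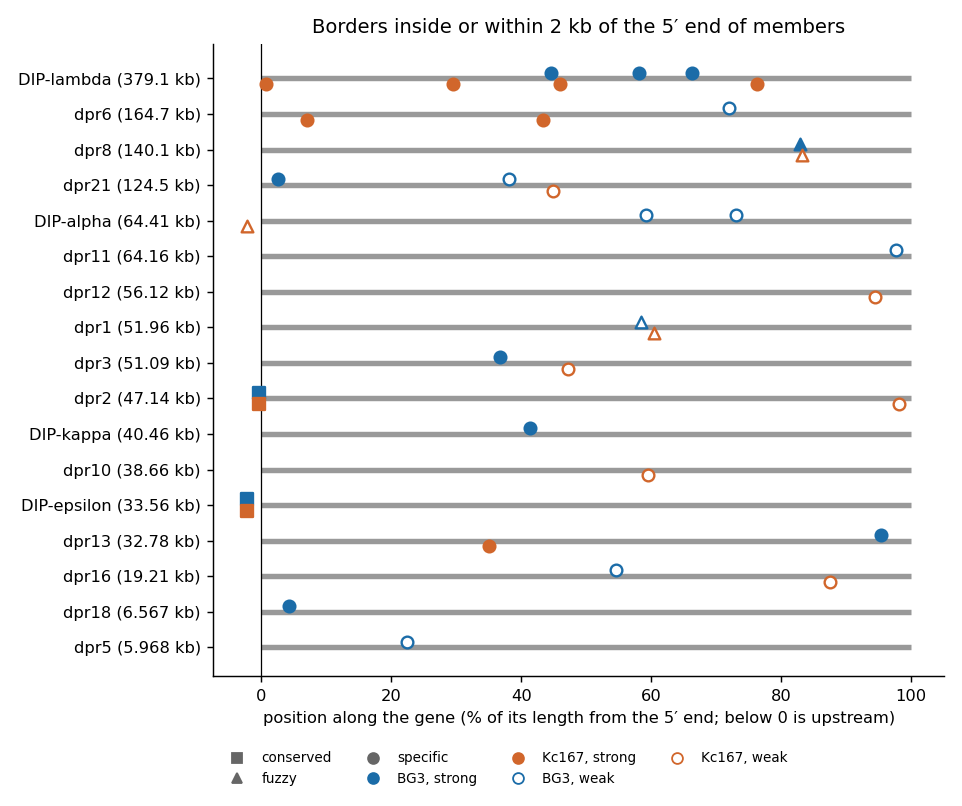
Each bar is a member with a border inside it or within 2 kb of its 5′ end, scaled to its length, with blue marks for BG3 and orange marks for Kc167, filled where strong and shaped by class (square conserved, triangle fuzzy, circle specific). The only conserved marks are the upstream borders of dpr2 and DIP-epsilon, and inside the genes no border has the same position in both maps, though those of dpr1 and dpr8 lie 1054 and 434 bp apart.

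The borders inside autosomal members were nearly all specific at the limit of 2 kb. BG3 had 13 of them, of which 12 were specific, 1 was fuzzy and 0 were conserved. Kc167 had 14, of which 13 were specific, 1 was fuzzy and 0 were conserved. With a limit of 10 kb, 6 of the 13 BG3 borders and 8 of the 14 Kc167 borders stayed specific. The share over all borders at that limit is not given here. Over all autosomal borders, 46.3% were specific in BG3 and 50.6% in Kc167. Inside autosomal genes of at least 20 kb the shares were 59% and 60.5%, so the share was also higher inside long genes in general than over all borders. DIP-lambda and dpr21, both toward the centromeric end of 2R, gave 5 of the 12 and 5 of the 13. Without these genes 7 of 8 BG3 borders and 8 of 9 Kc167 borders were specific. Both maps placed borders, at different positions, in 7 of the 27 members, where 4.81% of all autosomal genes held one in both maps. For members of at least 20 kb this was 6 of 15, beside 27.5% of genes of that length. BG3 alone had borders in 3 members and Kc167 alone in 3, and 14 held none in either map (51.9%, beside 86.3% of all genes).

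The borders inside members were also set against the exons and introns of each gene. In BG3, 11 fell in introns, 1 in the untranslated part of an exon (dpr11) and 1 in a coding exon (DIP-lambda), and in Kc167, 13 fell in introns and 1 in a coding exon (dpr2). Of the borders inside autosomal genes of at least 20 kb, 81.2% were intronic in BG3 and 77.6% in Kc167. Strong borders made up 7 of 13 in BG3 and 7 of 14 in Kc167, where 57.3% and 56% were strong inside genes of at least 20 kb. Their median scores were 0.31 in BG3 (from -0.09 to 0.82) and 0.31 in Kc167 (from -0.009 to 1.002), above the medians over all autosomal borders of -0.0003 and -0.025. The score is a separate measure from the strong or weak call, and scores inside other genes of at least 20 kb were not compared.

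In dpr3 on 2L, of 51.1 kb, the strong BG3 border at 2091151 lay 18.7 kb from the 5′ end and the weak Kc167 border at 2085766 lay 24.1 kb from it, 5385 bp apart and in introns. Their scores, 0.82 and 1.002, were the highest among the internal borders of autosomal members in each map. Over all autosomal borders the scores ran up to 1.033 in BG3 and 1.074 in Kc167. The TADs at the 5′ end, 39.4 kb in BG3 and 44.7 kb in Kc167, ended at the same base and shared 88.0% of their span, and each held less than the whole gene, 36.7% and 47.2%. Both maps thus listed a border toward the middle of the gene, at points a few kilobases apart. The high scores mean that many contacts crossed these borders, compared with other borders of each map.

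A similar picture was seen in dpr1, the founding member, on 2R. The BG3 border at 20728800 and the Kc167 border at 20729854 lay 1054 bp apart in an intron, 30.3 and 31.4 kb from the 5′ end, which made them the only fuzzy borders inside autosomal members. Both were weak, and CG13442 had its 5′ end 1810 and 756 bp from them. The TADs at the 5′ end, of 56.9 and 57.96 kb, began at the same conserved border and shared 98.2% of their span.

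In dpr16 on 3R, a partner of DIP-gamma, the weak BG3 border at 5161398 and the weak Kc167 border at 5167728 were 6330 bp apart. The 5′ end lay in a TAD of 33.9 kb in BG3 and of 40.2 kb in Kc167, which began at the same base. In dpr13 on 2R the strong BG3 border at 17976628 fell at 95.4% of the gene's length and the strong Kc167 border at 17996414 at 35.0%. The TAD at the 5′ end of dpr13 was 118 kb wide in BG3 and 26.97 kb in Kc167, the narrowest Kc167 TAD among autosomal members, and the BG3 TAD was 4.37 times as wide. In these genes the maps differed by the place of the border and not by its presence.

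DIP-lambda, the longest member at 379 kb, was cut by 3 BG3 and 4 Kc167 borders, all strong and all specific. The BG3 borders stood 169, 220 and 251 kb from the 5′ end, and the Kc167 borders 2.70, 112, 174 and 289 kb from it. The closest pair across maps, 495781 in a coding exon in BG3 and 501241 in an intron in Kc167, was 5460 bp apart. Because a Kc167 border fell 2698 bp into the gene, its Kc167 TAD held 0.712% of it and its BG3 TAD held 44.6%. The TADs at the 5′ end, of 172 and 100.4 kb, shared 2.10% of their span, the lowest share of an autosomal member.

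In dpr21, of 125 kb, BG3 borders lay 3168 and 47343 bp from the 5′ end and the Kc167 border lay 55821 bp from it, all in introns and all specific. The BG3 TAD at the 5′ end held 2.55% of the gene and the Kc167 TAD held 44.8%, and they shared 5.79% of their span although both were close to 60 kb wide (61.4 and 59.3 kb). Among members with a border in 1 map alone, DIP-kappa had a strong BG3 border 16.7 kb from its 5′ end and dpr11 a weak one 62.7 kb from it, in an untranslated part of an exon near the 3′ end. dpr12 had a weak Kc167 border at 94.4% of its length, 96 bp from an exon.

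The genes dpr6 and dpr10 are neighbours on 3L whose products bind the same partner, DIP-alpha. The genes lie 8.09 kb apart with their 3′ ends toward each other, and their 5′ ends are 212 kb apart. In BG3 the 5′ end of dpr6 lay in a TAD of 194 kb, the widest of an autosomal member, which ended at a weak border 119 kb into the gene. That border, at 10093181, is inside CG32054, one of several genes nested in dpr6 on the other strand, and 835 bp from the 5′ end of CG32053. In Kc167 strong borders stood 11.5 and 71.3 kb into dpr6, so that the TAD at the 5′ end was 33.7 kb wide and held 6.995% of the gene, against 72.0% in BG3. The BG3 TAD was 5.75 times as wide as the Kc167 TAD, the largest ratio among the 32 members. A weak Kc167 border at 10163107 divided dpr10 as well, 23001 bp from its 5′ end, and BG3 had none in that gene. For these 4 borders the nearest border of the other map lay 30536 to 86803 bp away.

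**Figure D2:**
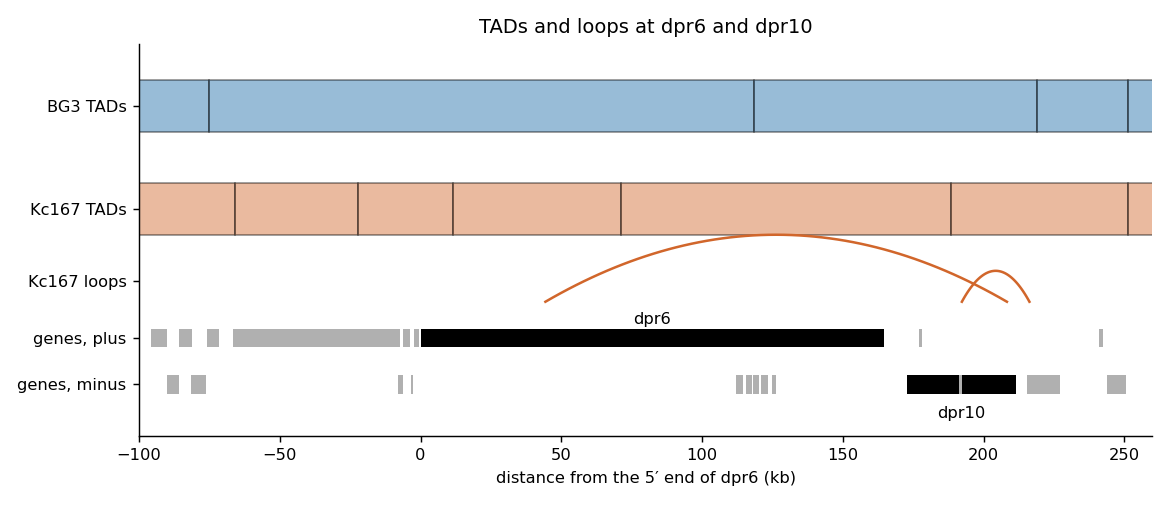
The map shows the TADs of BG3 (blue) and Kc167 (orange), the Kc167 loops at dpr6 or dpr10 (arcs between anchor midpoints) and the protein-coding genes of each strand, against the distance from the 5′ end of dpr6 in kb. BG3 has 1 border inside dpr6 and none inside dpr10, Kc167 has 2 and 1, and the wider arc joins the 2 genes.

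A Kc167 loop joined the 2 genes. Its anchors, 10018001 to 10020000 in dpr6 and 10182001 to 10184000 in dpr10, were 164 kb apart with 2 Kc167 borders between them. It rested on 20 observed contacts where 5.36 were expected from the surrounding ring of the map (the donut), a ratio of 3.73 with a Poisson interval of 2.28 to 5.76 (95%, counting error only), and the authors' q-value was 0.00518. A second Kc167 loop, of 24 kb and 54 contacts, ran from dpr10 and the nested gene CG6628 to ect. The BG3 list held no loop at either gene. The BG3 list rests on fewer filtered reads and on fewer contacts per loop (a median of 54 against 65 in Kc167 over autosomal loops). The role of depth in this difference was not tested.

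Borders also fell between the 5′ ends of neighbouring members. Of the 4 pairs of neighbours, judged by their 5′ ends, 2 shared a TAD in BG3 and 1 in Kc167. The borders that parted dpr6 from dpr10 lay inside these genes in both maps, and not in the gap between them. DIP-eta and DIP-theta on 2L, 8.34 kb apart, shared a TAD in both maps, 137 kb wide in BG3 and 122 kb wide in Kc167. The partners of DIP-gamma on 3R, dpr17 and dpr15, shared a BG3 TAD of 172 kb and were parted in Kc167 by a strong border at 12120568, into TADs of 104 and 84.8 kb. The pair dpr5 and dpr4 was parted in both maps, by the BG3 border inside dpr5 and by a weak Kc167 border at 11509729 between the genes. In the stringent TAD lists all 4 pairs shared a TAD in BG3, of 150 to 633 kb, and 2 did in Kc167, so the separation in BG3 rests on weak borders. Other pairs of neighbouring genes at like distances were not counted, so these numbers do not set the members apart.

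None of the 7 DIP and dpr pairs examined as binding partners shared a TAD or were joined by a loop in either map. DIP-alpha is on X and its partners dpr6 and dpr10 are on 3L, and DIP-delta is on 3L and its partner dpr12 on 2R. DIP-gamma and its partners dpr11, dpr15, dpr16 and dpr17 are all on 3R, 16.8 to 23.8 Mb apart. Their positions alone settle that no pair could share a TAD, since the widest TAD at an autosomal gene measured 579 kb in BG3 and 413 kb in Kc167. Loops were read within a chromosome only, so none could join the partners on different chromosomes.

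The TADs at the 5′ ends of the 27 autosomal members had a median width of 67.6 kb in BG3 (95% interval of the median 53.3 to 129) and 64.6 kb in Kc167 (45.1 to 101.2). The medians over all autosomal genes were 61.2 and 48.5 kb, the first inside the interval of the members and the second inside it too. Members of at least 20 kb had medians of 100.5 kb in BG3 (61.4 to 137) and 62.8 kb in Kc167 (45.1 to 103.9). All genes of that length had 64.8 and 55.8 kb, both inside those intervals. Members in TADs over 100 kb numbered 12 in BG3 and 9 in Kc167, where 24.2% and 19.8% of genes lay in such TADs. The BG3 TAD was the wider for 16 of 27 members and for 54.2% of genes. Their TADs held few genes, with a median of 6 protein-coding 5′ ends in BG3 and 5 in Kc167 against 10 and 9 for all genes. Genes of at least 20 kb had medians of 6 and 5 as well.

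**Figure D3:**
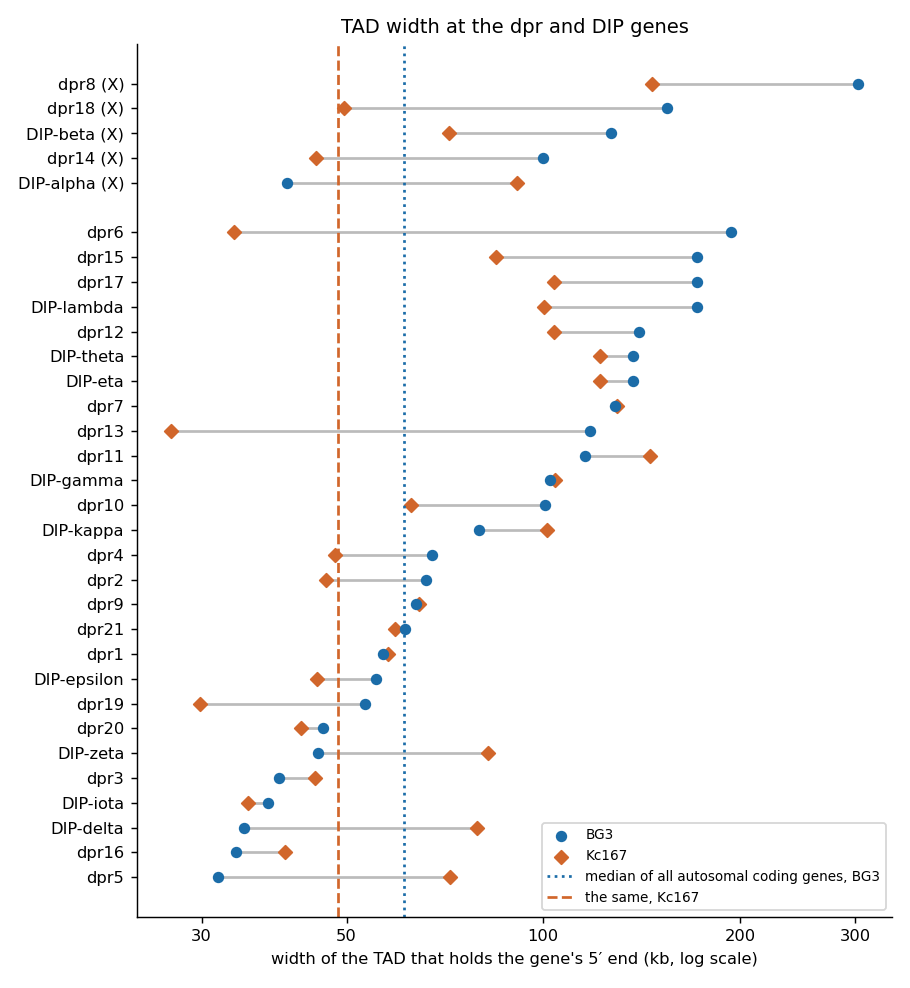
Circles give the width in BG3 and diamonds the width in Kc167 of the TAD at the 5′ end of each member, in kb on a log scale, with members on X apart at the top, and the vertical lines give the medians over all autosomal protein-coding genes (61.2 kb dotted, 48.5 kb dashed). dpr6 and dpr13 have the longest connecting lines, and dpr7, DIP-gamma, dpr9 and dpr1 the shortest.

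How far a member's TAD agreed between the lines ranged from nearly whole to nearly nothing. The shared fraction, the overlap of both TADs over their joint span, had a median of 60.3% (44.0 to 81.4) and a range of 2.10% to 99.4%, and the median over all genes was 61%. It was over 80% for 8 members and under 50% for 12, a class that held 40.7% of genes. The share of all genes over 80% is not given here, so the count of 8 cannot be called high or low. No autosomal member had the same TAD in both maps to within 20 bp at each end, as 7.89% of genes did. The closest were dpr7 on chromosome 4, with TADs of 129 and 129.5 kb that shared 99.4%, dpr9 on 3R, with 63.8 and 64.6 kb that shared 98.8%, and dpr1. In these 3 genes each end differed by less than 2 kb and a conserved border closed the TAD at one side.

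Other members had 1 end in common or none. DIP-iota on 2L had TADs of 37.97 and 35.3 kb that ended at the same base and shared 93.1%, and dpr20 on 3L had TADs of 45.97 and 42.6 kb that differed at both ends and shared 82.6%. dpr19 on 2L had 53.3 kb in BG3 and 29.8 kb in Kc167 with a common conserved border 10268 bp from its 5′ end. For DIP-delta, the partner of dpr12, the Kc167 TAD of 79.2 kb was 2.27 times as wide as the BG3 TAD of 34.8 kb, and both ended at 5448777. DIP-zeta, with 45.2 kb in BG3 and 82.2 kb in Kc167, and dpr5 were the other autosomal members with a Kc167 TAD over 1.5 times as wide.

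**Figure D4:**
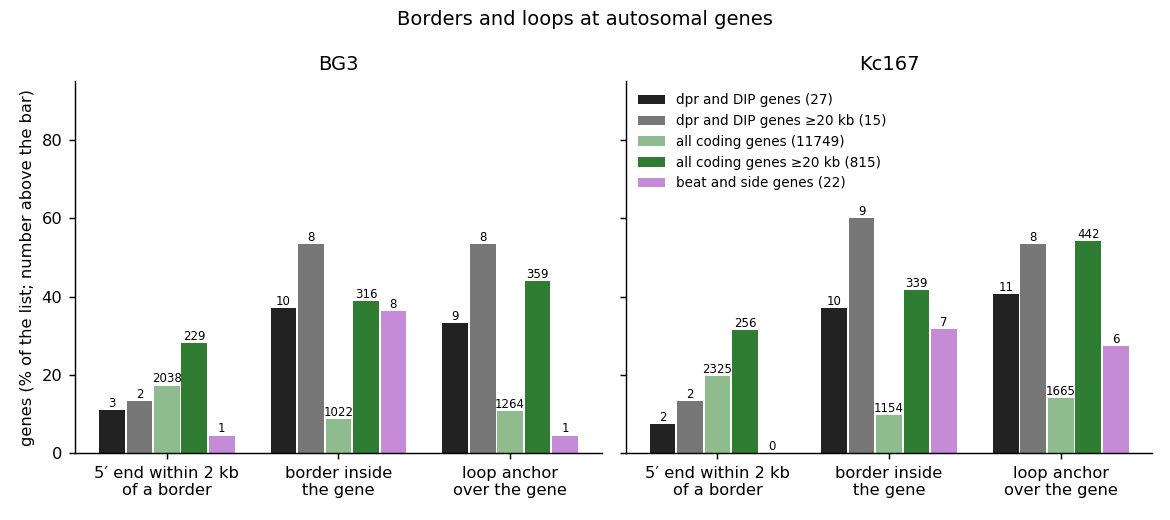
Bars give the share of each list of autosomal genes with the 5′ end within 2 kb of a border, with a border inside the gene and with a loop anchor over the gene, for BG3 (left) and Kc167 (right), in percent with the number of genes above each bar. The members stand below all genes at 5′ ends and above all genes for internal borders and loops, while among genes of at least 20 kb they stand farther below at 5′ ends, less far above for internal borders and BG3 loops, and just below for Kc167 loops.

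Loops touched 17 of the 27 autosomal members in at least 1 map. In BG3, 9 members had a loop anchor over the gene (10.8% of all autosomal genes), and in Kc167, 11 had (14.2% of genes). Among members of at least 20 kb, 8 of 15 had a BG3 loop, where 44% of such genes did, and 8 of 15 a Kc167 loop, where 54.2% did. Both maps gave loops to 3 of the 27 members, where 5.15% of all autosomal genes had loops in both, and all 3 were among the 15 long members, where 28.5% of genes of that length had. BG3 alone gave loops to 6 members (22.2%, beside 5.61% of all genes), Kc167 alone to 8 (29.6%, beside 9.02%), and neither map to 10 (37%, beside 80.2%).

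The 3 members with loops in both maps, dpr3, dpr12 and dpr9, each had a loop that the maps shared, with both pairs of anchor midpoints within 10 kb. For dpr3 the anchors were the same bins in both, 2086001 to 2088000 in the gene and 2128001 to 2130000 over the 5′ end of CG4259, 42 kb apart. The loop had 39 contacts and a ratio of 2.70 (1.92 to 3.70) in BG3 and 50 contacts and a ratio of 5.10 (3.79 to 6.73) in Kc167, and both anchors lay within 1 kb of Kc167 borders. For dpr9 the anchors were also the same bins, 15056001 to 15058000 in the gene and 15082001 to 15084000 in CG6966, with ratios of 3.39 (2.33 to 4.76) in BG3 and 3.26 (2.53 to 4.14) in Kc167. The dpr12 loops spanned 108 kb in BG3 and 106 kb in Kc167 and ended in CG7881 and CG7882, with ratios of 2.87 (2.12 to 3.79) and 2.58 (1.92 to 3.41). The intervals of the 2 maps overlapped for dpr9 and dpr12 and did not for dpr3, where they cover counting error only and say nothing of the spread between replicates.

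In all, 13 BG3 loops and 14 Kc167 loops had an anchor over an autosomal member, and 3 of each were shared. Over all autosomal loops 38.1% of the BG3 list and 26.1% of the Kc167 list were shared. Loops at members had a median length of 42 kb in BG3 and of 44 kb in Kc167 against 26 and 28 kb over all autosomal loops. The lengths of loops over other genes of at least 20 kb were not compared. Both anchors lay in the same TAD for 5 of 13 BG3 loops and 7 of 14 Kc167 loops, where the shares over all autosomal loops were 77.4% and 65.5%. Loops over genes of at least 20 kb stayed in a TAD in 74.9% and 65.1% of cases, and the part that the length of the loops plays was not tested.

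**Figure D5:**
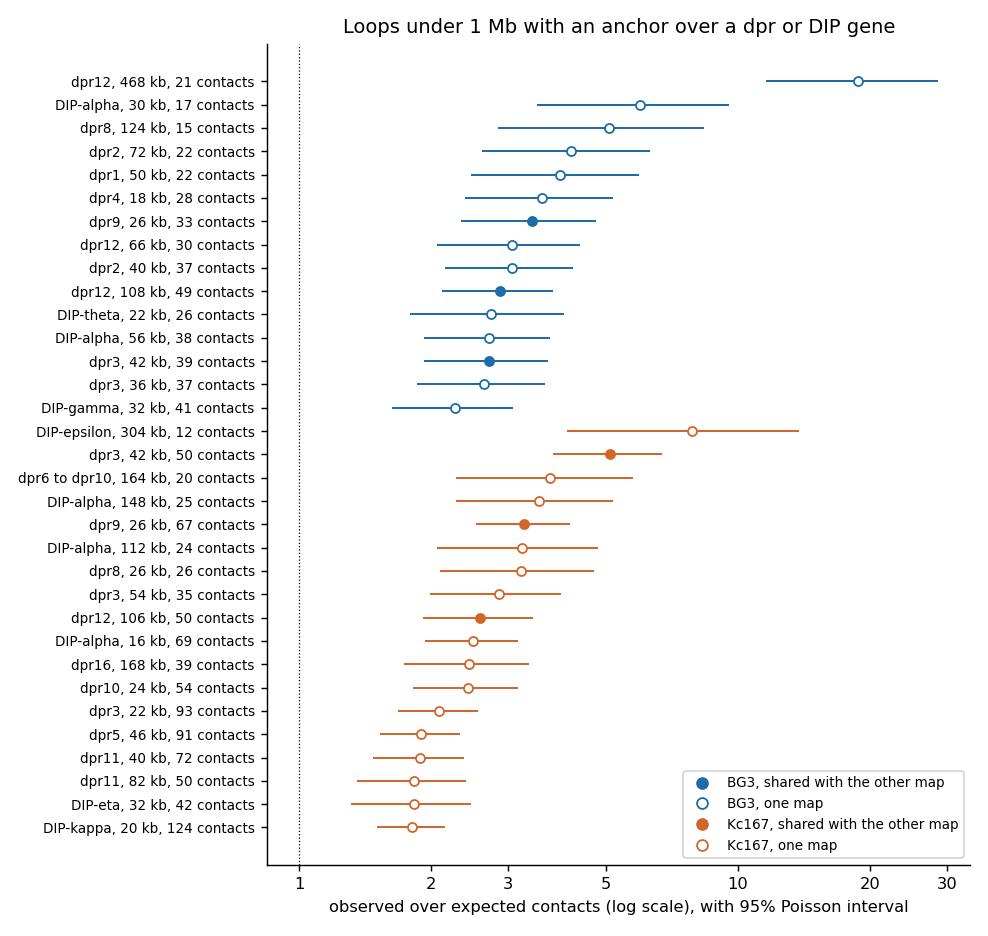
Each point is a loop under 1 Mb with an anchor over a member, placed by its ratio of observed to expected contacts (log axis) with its 95% Poisson interval, blue for BG3 and orange for Kc167, filled where both maps shared the loop. All intervals lie above a ratio of 1, as the caller selects loops by such ratios, and the highest ratios are those of dpr12 over 468 kb in BG3 and DIP-epsilon over 304 kb in Kc167.

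Among loops found in a single map, the strongest in BG3 under 1 Mb ran from dpr12 over 468 kb and 12 borders, with 21 contacts against 1.12 expected (ratio 18.8, 11.6 to 28.7). dpr2 had BG3 loops of 72 and 40 kb to a common anchor inside the gene, 24335 bp from its upstream border, and no Kc167 loop. In Kc167, DIP-epsilon had a loop of 304 kb to stai, which encodes a stathmin, with 12 contacts against 1.52 expected (7.88, 4.07 to 13.8). The Kc167 loop of dpr5 over 46 kb rested on 91 contacts (1.90, 1.53 to 2.33), and its anchor, 11500001 to 11502000, held the position of the BG3-specific border at 11501318. That stretch of dpr5 was thus a border in BG3 and a loop anchor in Kc167. The loop of DIP-kappa, 20 kb long, had the most contacts of all member loops, 124, and the lowest ratio, 1.81 (1.501 to 2.15).

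Of the remaining loops under 1 Mb at autosomal members, those of BG3 were at DIP-theta (22 kb, to Hsp60C), dpr4 (18 kb, to the 5′ end of CG10898), DIP-gamma (32 kb, to wat), dpr1 (50 kb), dpr3 (36 kb) and dpr12 (66 kb, to CG43366). Their ratios lay between 2.27 and 3.93. Those of Kc167 were at dpr3 (54 and 22 kb), DIP-eta (32 kb, to the 5′ end of CG14011), dpr16 (168 kb, from the 5′ end of CG12590 to plh) and dpr11 (40 kb, to CG15186, and 82 kb, to the 5′ end of sowi), with ratios between 1.82 and 2.85. DIP-iota, DIP-zeta, dpr19, dpr13, DIP-lambda, dpr20, DIP-delta, dpr17, dpr15 and dpr7 had no loop in either map. Loop anchors came within 2 kb of the 5′ end of 0 autosomal members in BG3 and 3 in Kc167, where 9.9% and 12.8% of all autosomal genes had one. Among genes of at least 20 kb the shares were 13.5% and 13.1%, and 0 and 2 of the 15 long members had such an anchor.

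In BG3, 2 loops over 1 Mb began in members, that of dpr21 over 2574 kb, with its other anchor in scaf, and that of DIP-alpha on X over 2656 kb, with no protein-coding gene at its other anchor. Each had 15 observed contacts, against 0.0423 and 0.0391 expected. At so low an expectation the ratios, 355 and 384, depend on how the caller sets the background at long range, and no Kc167 loop matched either.

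The 5 members on X, DIP-alpha, DIP-beta, dpr8, dpr14 and dpr18, are given apart because BG3 is male and Kc167 female, so that sex and line cannot be told apart there. BG3 TADs were the wider for 4 of them. The share over all genes on X was not counted, so this cannot be read as a trait of the members. dpr8 had 303 kb in BG3 and 147 kb in Kc167, dpr18 had 154 and 49.6 kb, DIP-beta had 127 and 71.8 kb, and dpr14 had 99.8 and 44.8 kb. DIP-alpha was the exception, with 40.6 kb in BG3 and 91.1 kb in Kc167.

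Borders inside members on X numbered 4 in BG3 and 1 in Kc167, also without a count over all genes on X. DIP-alpha, which binds the products of dpr6 and dpr10, was cut in BG3 by weak specific borders 38.1 and 47.01 kb from its 5′ end, and in Kc167 had a weak fuzzy border 1472 bp upstream, 974 bp from a BG3 border. It had 3 loops in each map, none shared, and in both maps a loop joined the same anchor in its 3′ part, 3512001 to 3514000, with another site inside the gene, 56 kb away in BG3 and 16 kb away in Kc167. In dpr18 a strong BG3-specific border at 16064020 lay 282 bp into the gene, so that the BG3 TAD of its 5′ end held 4.31% of it. The Kc167 TAD held all of it, and the shared fraction, 1.42%, was the lowest of all 32 members. In dpr8 the borders of the maps were 434 bp apart, at 116 and 117 kb from the 5′ end, and were the only pair inside a member on X. DIP-beta and dpr14 held no border in either map.

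In the windows from 250 bases before to 50 after each 5′ end, GAGAG on either strand occurred in 14 of 32 members, 43.8%, where 29.7% of all 13945 windows held it. dpr13 had 7 matches, and dpr9 and DIP-gamma 4 each. TATAAA occurred in 6 members, 18.8% against 45.8%, TATCGATA in dpr14 alone, 3.12% against 9.36%, and GGTCACAC in 0, against 7.7%. These are matches of letters in a window and not sites shown to be bound. The windows of dpr2, dpr5 and dpr18, which begin at or close to borders, held none of the 4 motifs, and that of DIP-epsilon held TATAAA once.

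The beat and side genes, a further ligand and receptor family of fly neurons with immunoglobulin domains, were read in the same way. All 22 are autosomal, with a median length of 41.2 kb. Only beat-IIIc began within 2 kb of a border, a BG3-specific one at 333 bp, and 8 of 22 held a BG3 border and 7 a Kc167 border. Their TADs had medians of 139 kb in BG3 (99.4 to 241) and 135 kb in Kc167 (70.8 to 162). The medians were 67.6 and 64.6 kb for the dpr and DIP genes. For dpr and DIP genes of at least 20 kb they were 100.5 kb (61.4 to 137) and 62.8 kb (45.1 to 103.9). These intervals overlap those of the beat and side genes in both maps. Several beat genes are neighbours in a single wide TAD, such as beat-Ia, beat-Ib and beat-Ic in a BG3 TAD of 248 kb. Such a TAD counts once for each gene, as it does for dpr and DIP neighbours, and the intervals leave this out of account. Loops touched 1 of them in BG3 and 6 in Kc167, against 9 and 11 of 27. Of the further genes klg, Lac, Ama, wrapper and cDIP, Lac began 361 bp from a conserved border, 0 held a border, and cDIP and klg had a loop in each map. None of these differences between lists was tested.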

How the data were processed

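In situ Hi-C libraries of 2 replicates per line were processed by the authors, who merged replicates, then called TADs with HiCExplorer on DpnII fragments (once permissively, once stringently) and loops with HiCCUPS on 2 kb bins. The submitters' processing notes name Juicer 1.7.6, BWA 0.7.15-r1140 and dm6. The deposited TAD lists give positions and the TAD separation score, which was found to belong to the start of each TAD. The deposited loop lists give counts of observed contacts, the expected contacts (a signal computed from a donut around each loop) and the q-value (an adjusted p-value) for it. All were used as deposited. Other deposited files were not used here.

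Genes were those of Ensembl 115, on the dm6 assembly, whose chromosome lengths the lists did not exceed. The 5′ end is that of the gene record. Borders are the ends of permissive TADs. Autosomes alone were counted, as in the study's methods. Every member, and every border and loop at a member, was named by rule, with the nearest gene start within 5 kb of a border and the genes at the other anchor. Members, lists and rules were chosen with earlier results of these data known. With 1 merged map per line there was no test. Medians have 95% intervals from order statistics, which treat genes as independent, and contacts have exact Poisson intervals. Functions were tested on simulated data. Python 3.11.15, NumPy 2.4.6, SciPy 1.17.1 and Matplotlib 3.10.9 were used. The alternatives varied distances, border classes, TAD lists, the gene position used and the loops kept.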

Additional observations from a re-analysis of the deposited data

How the results depend on the processing

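Of 73 alternatives over 16 results, 53 set out earlier and 20 chosen after seeing the data, 52 left a count within 1.5 times or a median within its interval, and 21 moved it. The order of the lines was not kept throughout. With the TAD at the gene's midpoint the median width was 67.6 kb in BG3 and 79.2 kb in Kc167, the reverse of the order at the 5′ end. With X added, specific borders inside members numbered 15 in BG3 and 13 in Kc167, also the reverse. With 5 kb in place of 2 kb from the 5′ end to the border, 5 members lay at BG3 borders, 4 at Kc167 borders, 3 at BG3-specific and 2 at Kc167-specific ones. The single member at a BG3-specific border, dpr5, was lost (count 0) with 1 kb, with strong borders alone or with a limit of 10 kb for specific, and became 2 with X added, through dpr18. With strong borders alone, 5 members held a BG3 border and 3 a Kc167 border. In the stringent lists the median TAD widths were 213 kb in BG3 and 169 kb in Kc167, and the shared fraction was 43.6%. Counting loop anchors within 2 kb of the 5′ end alone left 0 members in BG3 and 3 in Kc167. BG3-specific borders inside members numbered 7 when strong, 6 at the limit of 10 kb and 7 without DIP-lambda and dpr21, and Kc167-specific ones 7, 8 and 8. No paired analysis was possible because the lists hold merged replicates and no test was made. Contacts per loop are few, 12 to 124 at members, and fragment size limits the precision of borders.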
